A study of Mus musculus with 6 samples.

Results

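Notch signaling in denervated gastrocnemius muscle was followed through 10 genes, namely the 4 receptors Notch1, Notch2, Notch3 and Notch4, the 3 ligands Dll1, Dll4 and Jag1, and the 3 target genes Hes1, Hey1 and Heyl. The genes were chosen by name, with earlier results of these data known. Every probe set that the annotation of the array assigns to a single gene among them was taken. All 10 genes were measured, out of 17097 that could be named, with 18 probe sets of the 45037 tested. RNA came from the gastrocnemius of male ICR mice that were 7 weeks old at the start. The MA group ate an AIN-93G diet with 0.27% maslinic acid (MA), a pentacyclic triterpene of olive peel, and the control group ate the same diet without it. After a week on the diet all mice of both groups lost a piece of the sciatic nerve on both sides, and the muscle was taken at day 14, so that no array here shows muscle with an intact nerve. Each group had 3 Affymetrix mouse arrays. It is not given in the sources used here whether a group's arrays hold different mice or pooled RNA, so p-values measure the spread between arrays and no more.

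Notch receptors are membrane proteins that are cut when a ligand of the Delta or Jagged family on a neighbouring cell binds them. The freed intracellular part enters the nucleus, joins the DNA-binding protein Rbpj and switches on genes of the HES and HEY families, which are transcriptional repressors. In skeletal muscle the pathway is known for keeping satellite cells, the muscle stem cells, quiescent and undifferentiated, and in blood vessels for shaping endothelial sprouts and the mural cells around them.

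Values are the log2 values that the authors deposited after robust multi-array averaging (RMA), and differences are MA minus control on that scale. Each probe set was tested with limma, with Benjamini-Hochberg adjustment over the whole array. "Rose" and "fell" are used of genes with an adjusted p under 0.05 at the brightest probe set, which has the highest mean over the 6 arrays. The level of nonspecific binding was set at 3.95, the highest value of the control probe sets used for it. In these bulk samples, fewer cells of a type and less RNA per cell cannot be told apart. The median of each array was 4.27. Over the probe sets, which are no independent replicates, Pearson's r was 0.99922 to 0.99965 within a group and 0.99338 to 0.99369 between the groups. All 10 markers of skeletal muscle fibers were above the level of nonspecific binding, with a mean over the list of 12.21 to 12.22 on the MA arrays and 12.13 on each control array.

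The receptor Notch1 and the target Hes1 were the members that differed most, both lower in the MA group and both by more than the spread between arrays. Notch3 fell as well and Notch4 fell slightly at the level of nonspecific binding, while Notch2 rose. None of the ligands passed the test at its brightest probe set, nor did the targets Hey1 and Heyl. In all, 4 of the 10 genes fell and 1 rose. Among all named genes, 23.0% fell and 24.7% rose, so that 47.8% passed the test in either direction, and the 5 of 10 members that passed are a share near that background. MA and control arrays were fully separate at 6 of the 10 members, beside 58.6% of all named genes. With the thresholds of the methods, which ask for a fold over 1.2 and an unadjusted p under 0.05, Notch1, Notch3 and Hes1 passed, all lower, beside 12.8% of all named genes in either direction and 6.87% in the lower direction. The median difference was -0.057 over the 10 members and 0.0063 over all named genes. Of the 18 probe sets 8 were lower and 1 was higher at an adjusted p under 0.05, beside 21.4% and 21.6% of all probe sets and 42.9% in either direction. Past 1.2-fold there were 3 of the 18, beside 10.3% of all probe sets.

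**Figure D1:**
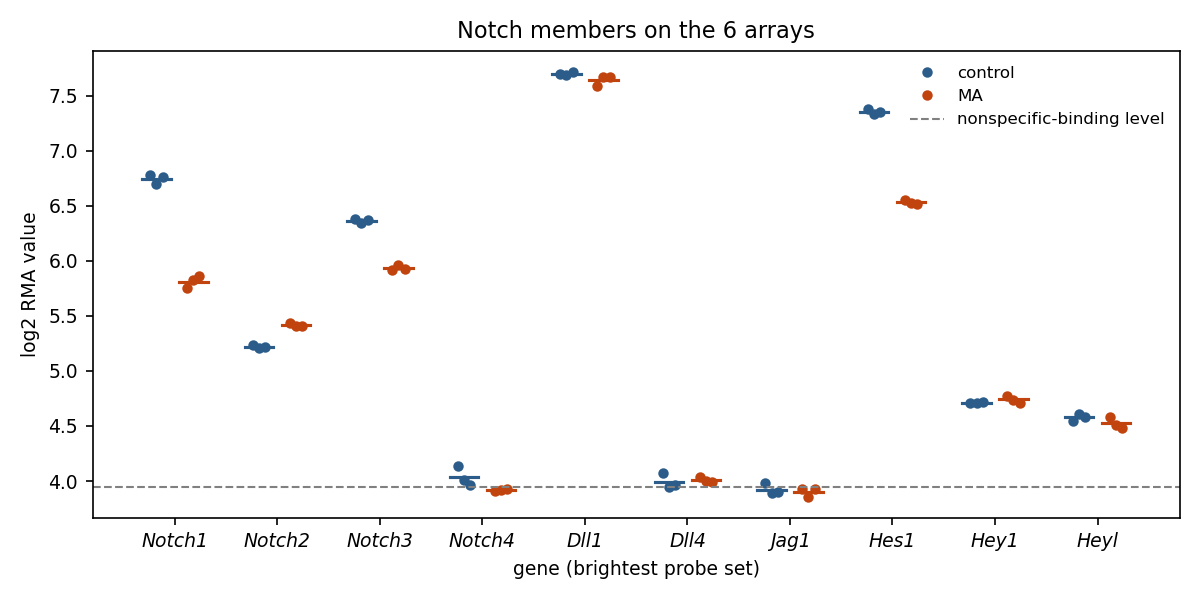
Log2 RMA value (y axis) of the brightest probe set of each of the 10 members (x axis) on the 3 control arrays (blue) and the 3 MA arrays (orange), with 1 point per array, a bar at each group mean and a dashed line at the level of nonspecific binding, 3.95. Notch1, Notch3 and Hes1 lie lower on all 3 MA arrays, Notch2 lies higher, and Notch4, Dll4 and Jag1 lie near the dashed line. Heights are not comparable between genes, since each probe set binds with its own strength.

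Notch1 is a receptor found on satellite cells and on endothelium. On GRCm38.p6 the gene lies on chromosome 2 at 26457902 to 26503822. Its brightest probe set, 1418634_PM_at, had log2 values of 5.75, 5.83 and 5.86 on the MA arrays and 6.78, 6.70 and 6.77 on the control arrays. Every MA array was therefore lower than every control array, by far more than the arrays of a group differed among themselves. The mean was 5.81 ± 0.057 (SD, n = 3) against 6.75 ± 0.043 (SD, n = 3), a difference of -0.94 (standard error 0.035, limma adjusted p = 2.90e-07), so that Notch1 was 1.91-fold lower. In size this exceeded the difference at 99.3% of the probe sets. The other probe set of Notch1, 1418633_PM_at, fell by 0.24 (standard error 0.035, limma adjusted p = 7.70e-04), under 1.2-fold. The probe sets of Notch1 thus had the same direction but differed in size, with -0.59 when they were averaged (limma adjusted p = 1.01e-07). By the exact permutation test of 3 arrays against 3, which has 20 splits, the smallest two-sided p is 0.1, and Notch1 reached it at both probe sets. Every probe set with fully separate groups reaches it, and those were 53.9% of all probe sets.

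Notch3, a receptor of vascular smooth muscle and pericytes that is also found on satellite cells, lies on chromosome 17 at 32120820 to 32166896. It had log2 values of 5.92, 5.96 and 5.93 on the MA arrays and 6.38, 6.34 and 6.37 on the control arrays. The groups did not overlap. Notch3 fell by 0.43 (standard error 0.023, limma adjusted p = 2.71e-06), which is 1.34-fold. Its other probe set, 1421964_PM_at, fell by 0.20 (limma adjusted p = 2.20e-04) but stood under the level of nonspecific binding on all 6 arrays, with group means of 3.35 under MA and 3.55 in the controls.

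Notch2, a receptor that shares most of its domains with Notch1 and is also active in satellite cells, moved the other way. It lies on chromosome 3 at 98013538 to 98150367 and had 1 probe set, with log2 values of 5.44, 5.41 and 5.41 on the MA arrays and 5.23, 5.21 and 5.21 on the control arrays. All MA arrays were higher than all control arrays. The rise of 0.20 (standard error 0.021, limma adjusted p = 1.31e-04) is 1.15-fold and stays under the fold of 1.2. The hybridization controls, bacterial and phage transcripts spiked into each hybridization, also read higher under MA, at 18 of 18 probe sets, by 0.035 to 0.35 with a median of 0.17. Their part in the rise of Notch2, or in any other difference between the groups given here, was not tested.

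Notch4, a receptor found mainly on endothelium, lies on chromosome 17 at 34564286 to 34588543. At its brightest probe set it had 3.91, 3.91 and 3.93 on the MA arrays, all under 3.95, and 4.13, 4.01 and 3.96 on the control arrays. The difference was -0.12 with an adjusted p of 0.0483 by limma, just under the threshold, and control array 1 was the farthest from the others. Without that array the difference was -0.069 (limma adjusted p = 0.0606). The call was also lost without control array 2 (limma adjusted p = 0.0757), without MA array 1, 2 or 3 (limma adjusted p = 0.112, 0.118 and 0.0926), with the one-way test of the methods (adjusted p = 0.161) and with robust moderation (adjusted p = 0.0515). Over all alternatives its adjusted p lay between 0.0183 and 0.161. Of the other probe sets of Notch4, 1449146_PM_at fell by 0.083 under the level of nonspecific binding (limma adjusted p = 0.0308), a call lost without MA array 1, 2 or 3 or control array 1 or 2 and with the one-way test (adjusted p from 0.0517 to 0.102), and 1456263_PM_at differed by -0.035 (limma adjusted p = 0.546).

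**Figure D2:**
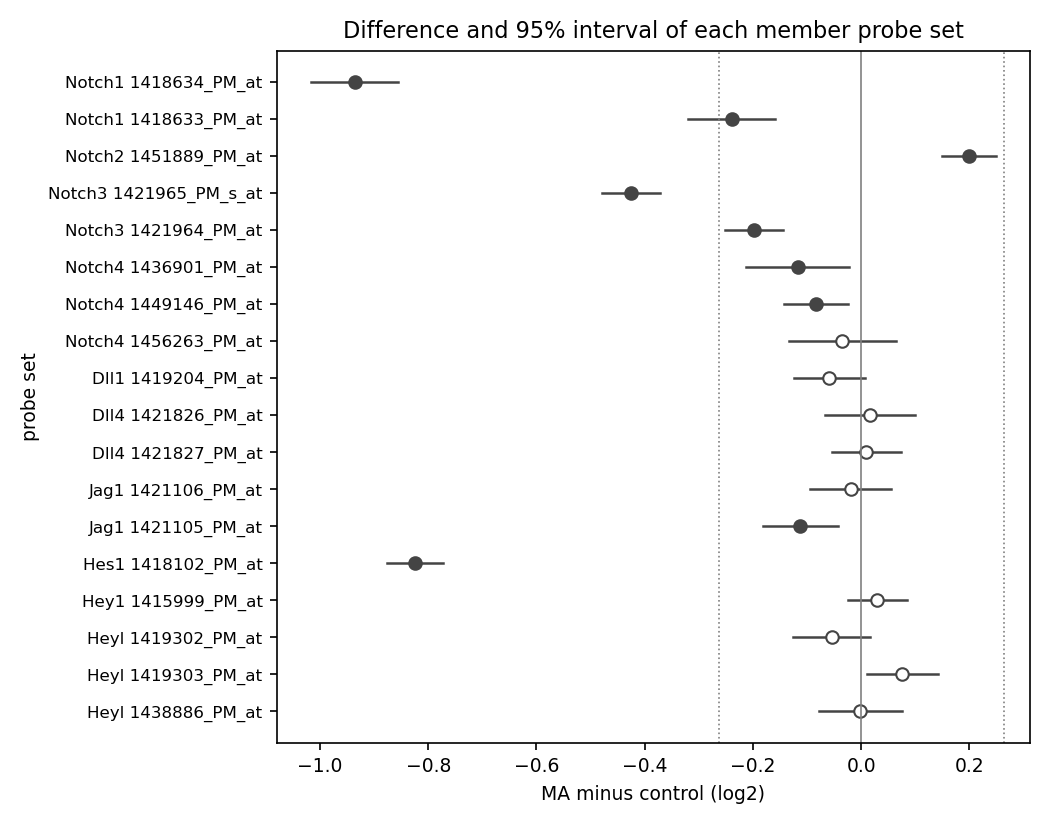
MA minus control on the log2 scale (x axis) for each of the 18 member probe sets (y axis), as a point with limma's 95% interval. Points are filled where the adjusted p was under 0.05, and the dotted lines stand at a fold of 1.2 in either direction. Only Notch1 1418634_PM_at, Notch3 1421965_PM_s_at and Hes1 lie past a dotted line, and Notch2 is the only filled point above 0.

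Promoters are printed for the receptors that fell at a probe set above the level of nonspecific binding on all 6 arrays. That of the receptor that rose is printed too, so that the sequences can be set side by side. They are from RefSeq on GRCm38.p6, with 250 bases before a start site given by the promoter table and 50 after it, read on the strand of the gene. The start site of Notch3 in that table lies a few bases inside the gene position given here. The table held promoters for 7 of the 10 members, with 8 windows in all, and Hes1, Hey1 and Heyl had no entry in it. The motifs searched on both strands were TGGGAA, the core of the site that Rbpj binds, CACGTG, an E-box that HEY proteins bind, and CACNAG, the N-box that HES proteins bind. Capitals mark CACNAG or its reverse complement, the only motif of these that was found in the windows shown.
Notch1, chr2:26503773-26504072, minus strand: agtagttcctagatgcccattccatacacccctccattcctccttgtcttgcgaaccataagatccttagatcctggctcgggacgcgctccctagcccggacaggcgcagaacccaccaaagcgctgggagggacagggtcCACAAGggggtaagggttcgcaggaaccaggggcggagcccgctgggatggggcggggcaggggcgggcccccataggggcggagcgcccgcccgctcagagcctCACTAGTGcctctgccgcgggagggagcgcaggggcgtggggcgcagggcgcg
Notch3, chr17:32166841-32167140, minus strand: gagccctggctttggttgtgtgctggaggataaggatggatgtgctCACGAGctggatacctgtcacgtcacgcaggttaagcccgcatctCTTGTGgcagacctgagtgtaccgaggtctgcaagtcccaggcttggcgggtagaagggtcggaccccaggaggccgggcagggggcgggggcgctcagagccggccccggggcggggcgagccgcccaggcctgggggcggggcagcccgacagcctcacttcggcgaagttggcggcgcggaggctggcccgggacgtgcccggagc
Notch2, chr3:98013288-98013587, plus strand: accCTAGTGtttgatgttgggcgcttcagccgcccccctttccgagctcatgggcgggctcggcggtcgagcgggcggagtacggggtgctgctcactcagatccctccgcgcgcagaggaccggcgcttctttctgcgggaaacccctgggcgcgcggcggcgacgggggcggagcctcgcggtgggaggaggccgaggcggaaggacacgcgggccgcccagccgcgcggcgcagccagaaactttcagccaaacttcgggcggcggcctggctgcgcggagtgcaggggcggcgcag
CACNAG occurred 3 times in the Notch1 window, with its later copies at base 248 and base 250 overlapping on opposite strands, 2 times in that of Notch3 and 1 time in that of Notch2. It also occurs in 42.5% of the 32851 promoters of the table. TGGGAA, found in 25.6% of all promoters, and CACGTG, found in 7.15%, were in none of the 8 windows of the members, which says only that these letters are not in these windows. The windows of Notch1, Notch3 and Notch2 were rich in G and C, at 68.3%, 70.0% and 73.0%. The window of Notch4, which is not printed, held 0 copies of CACNAG and had 58.3% G and C.

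Of the ligands, none passed the test at its brightest probe set. Dll1, a Delta ligand that signals between muscle progenitors and from fibers, was well above the level of nonspecific binding. It had log2 values of 7.59, 7.67 and 7.67 on the MA arrays and 7.70, 7.69 and 7.72 on the control arrays. The arrays did not overlap, but the difference was small, at -0.059 (95% interval -0.12 to 0.0070, limma adjusted p = 0.134), and without MA array 1 it was -0.031 (limma adjusted p = 0.345). Dll4, the Delta ligand of sprouting endothelium, lay at the level of nonspecific binding, between 3.94 and 4.07 over the 6 arrays, and differed by 0.016 (95% interval -0.067 to 0.099, limma adjusted p = 0.747). Its other probe set lay between 3.45 and 3.55, under that level, with a difference of 0.0096. Jag1, a ligand of endothelium and smooth muscle, lay between 3.86 and 3.98 with overlapping groups and differed by -0.019 (95% interval -0.094 to 0.056, limma adjusted p = 0.667). The second probe set of Jag1 had values from 3.67 to 3.73 on the MA arrays and from 3.76 to 3.85 on the control arrays, all under the level of nonspecific binding, with a difference of -0.11 (limma adjusted p = 0.0164). The call of that probe set was lost without MA array 1 or 3 or control array 2 or 3, at adjusted p = 0.0539, 0.0540, 0.0607 and 0.0527, and with the one-way test of the methods (adjusted p = 0.0646).

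Hes1, the HES repressor that Notch induces in many cell types, lies on chromosome 16 at 30065357 to 30067796 and had 1 probe set. Its log2 values were 6.55, 6.53 and 6.52 on the MA arrays and 7.38, 7.34 and 7.36 on the control arrays. The groups were far apart and each was tight, with means of 6.53 ± 0.016 (SD, n = 3) and 7.36 ± 0.019 (SD, n = 3). Hes1 fell by 0.82 (standard error 0.022, limma adjusted p = 4.87e-08), which is 1.77-fold, a difference larger in size than at 99.0% of the probe sets. It stayed between -0.83 and -0.80 in all the alternatives run, with adjusted p from 5.50e-13 to 8.83e-05. Hes1 is also induced by signals other than Notch.

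Neither of the HEY genes moved like Hes1. Hey1, a target of Notch in endothelium, had 4.78, 4.74 and 4.71 on the MA arrays and 4.71, 4.71 and 4.72 on the control arrays. Its groups overlapped, and the difference of 0.030 had a 95% interval of -0.025 to 0.084 (limma adjusted p = 0.351), while that of Hes1 ran from -0.88 to -0.77. Heyl, a target of Notch in satellite cells and mural cells, had 4.58, 4.51 and 4.48 on the MA arrays and 4.55, 4.61 and 4.58 on the control arrays at its brightest probe set. The arrays of the groups were mixed, and the difference was -0.055 (95% interval -0.13 to 0.016, limma adjusted p = 0.188). The other probe sets of Heyl differed by 0.076 (limma adjusted p = 0.0632) and -0.0014 (limma adjusted p = 0.978), so that its 3 probe sets did not share a sign. Without MA array 2 the probe set at 0.076 differed by 0.10 and passed (limma adjusted p = 0.0209), and the brightest of Heyl passed with array weights, at -0.075 (limma adjusted p = 0.0451). Averaging the probe sets gave 0.0067 for Heyl (limma adjusted p = 0.846).

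**Figure D3:**
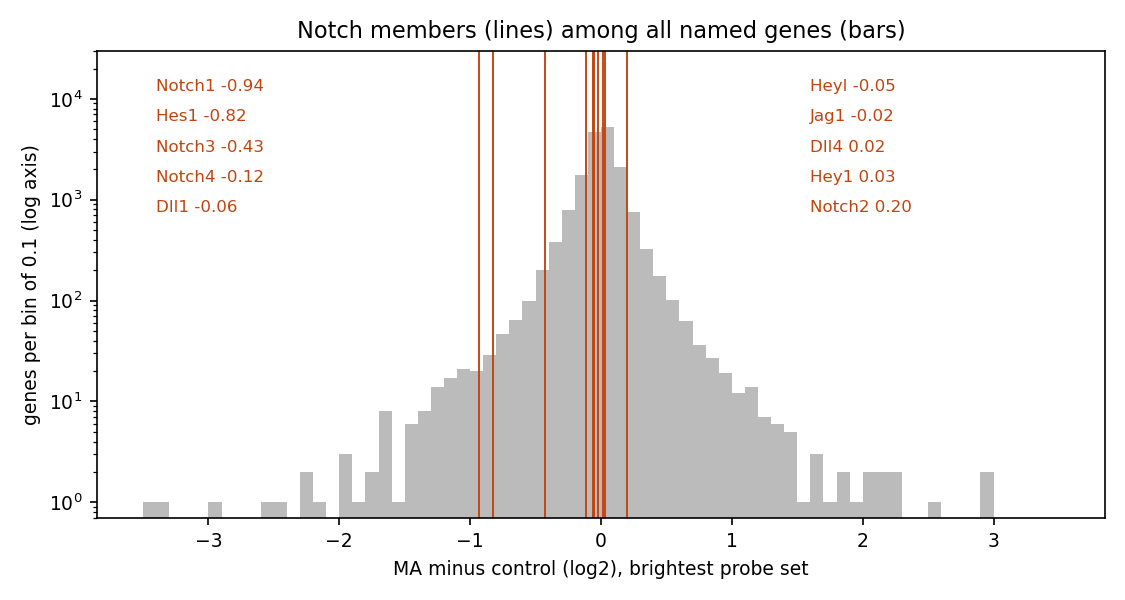
Number of genes (y axis, log scale) in bins of 0.1 of MA minus control on the log2 scale (x axis) for the 17097 named genes at their brightest probe set (bars), with a line at each of the 10 members and its value. Notch1 at -0.94, Hes1 at -0.82 and Notch3 at -0.43 lie in the lower tail, while Dll1, Heyl, Jag1, Dll4 and Hey1 lie between -0.059 and 0.030.

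The machinery around receptor and ligand was followed through a list of 54 other genes of the pathway, of which 46 were measured. Of these 16 fell and 7 rose, with 23 that missed the threshold, which is 34.8% and 15.2% beside 23.0% and 24.7% of all named genes, and the median difference was -0.054. Past 1.2-fold, 7 were lower and 2 were higher, while of all named genes 6.87% were lower and 12.8% passed in either direction. The counts by role given below stand beside the same 23.0% that fell and 24.7% that rose. Of the other ligands, Dll3 differed by -0.023 (limma adjusted p = 0.530), and Dner, a neuronal ligand, rose by 0.21 near the level of nonspecific binding.

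Of the 9 genes that cut the receptor, 5 fell and 2 rose at the brightest probe set, with Aph1a among the 5. The furin protease, which cuts Notch receptors on the way to the cell surface, is encoded by Furin, which rose by 0.11. Adam10, the protease that cuts the receptor once a ligand is bound, fell by 0.32 at its brightest probe set (8.07 ± 0.032 against 8.39 ± 0.012, SD, n = 3) and by 0.34 and 0.087 at the others. Adam10 was named after its values were seen, as were Adam17, Ncstn and Poglut1. Of the subunits of the gamma-secretase complex, which makes the last cut, Psen2 fell by 0.32, Aph1c rose by 0.22 and Psenen differed by 0.020 (limma adjusted p = 0.464). Aph1a fell by 0.38 at its brightest probe set, but its other probe sets differed by 0.043 (limma adjusted p = 0.254) and 0.32 (limma adjusted p = 3.55e-04), so that its direction depends on the probe set, and 4 of the 9 fell apart from it. Adam17, a related protease, and Ncstn, the nicastrin subunit of the complex, also fell, by 0.22 and 0.19. The other probe sets of Adam17 differed by -0.23 (limma adjusted p = 4.76e-04) and -0.041 (limma adjusted p = 0.542). That of Ncstn differed by 0.020 (limma adjusted p = 0.60). Of the 5 genes that add sugars to the receptor, Poglut1, a glucosyltransferase, fell by 0.082 and Rfng, a fringe enzyme, rose by 0.082. The other probe set of Rfng differed by -0.049 (limma adjusted p = 0.146). The call of Poglut1 was lost without MA array 1, 2 or 3 or control array 2 (limma adjusted p = 0.0749, 0.0912, 0.0720 and 0.101), with the one-way test of the methods (adjusted p = 0.0679) and with renewed quantile normalization, at -0.051 (limma adjusted p = 0.134). The call of Rfng was lost without MA array 2 or 3 or control array 3 (limma adjusted p = 0.0704, 0.0811 and 0.0786).

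In the nuclear complex with its corepressors 5 of 9 genes fell and none rose. Tle1 and Tle3, Groucho corepressors that work with HES proteins, fell by 0.37 and 0.36, and the other probe sets of Tle3 differed by -0.13 (limma adjusted p = 0.00809) and -0.013 (limma adjusted p = 0.765). Kat2b, an acetyltransferase that assists Notch, fell by 0.065 at its brightest probe set (limma adjusted p = 0.0344), with 10.13 ± 0.0026 against 10.20 ± 0.014 (SD, n = 3), and by 0.68 at another, while the remaining probe set differed by 0.015. That call was lost when any of the 6 arrays was left out, with adjusted p from 0.0536 to 0.106. Spen, a corepressor that binds Rbpj, fell by 0.14. Maml1, a coactivator of the Notch complex, fell by 0.21, and its other probe set differed by 0.070 (limma adjusted p = 0.227). Rbpj itself differed by -0.066 at its brightest probe set (limma adjusted p = 0.165) and fell by 0.34 at the other (limma adjusted p = 4.04e-05). Spen, Maml1 and Rbpj were likewise named after their values were seen.

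Of the 13 genes of ubiquitination and traffic, 3 fell and 3 rose. The falls were of Neurl1a, a ubiquitin ligase that acts on ligands, by 0.29, and of Numb and Numbl, inhibitors of Notch, by 0.11 each, and Neurl1b rose by 0.29 under the level of nonspecific binding. These 4 were named after their values were seen. Neurl1a had 6 probe sets that did not share a direction, since another fell by 0.15 (limma adjusted p = 0.00260) and another rose by 0.14 (limma adjusted p = 0.0118), and the remaining ones did not pass. Fbxw7, the ubiquitin ligase subunit that marks the intracellular part of Notch for breakdown, rose by 0.45 (7.33 ± 0.038 against 6.88 ± 0.053, SD, n = 3, limma adjusted p = 1.42e-05), the largest rise of the list, and by 0.47 at its other probe set. Nedd4, a ubiquitin ligase that acts on membrane proteins, rose by 0.074 at its brightest probe set and fell by 0.097 at the other. The rise of Nedd4 was lost without MA array 1 or 3 or control array 2 or 3, with adjusted p of 0.0704, 0.0606, 0.0732 and 0.0507 by limma.

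Among the 7 other HES and HEY genes and feedback targets, 2 fell and none rose, and 4, namely Hes2, Hes3, Hes5 and Hey2, stood under the level of nonspecific binding in both groups. These 4 were singled out after their values were seen. Hes6 counters Hes1 and favors differentiation and so does not act as the other genes of its group do. It fell by 0.52 (8.23 ± 0.021 against 8.75 ± 0.0082, SD, n = 3, limma adjusted p = 5.63e-07), the largest fall of the list at a brightest probe set. At its other probe set Hes6 fell by 0.53. Nrarp, a target that dampens Notch signaling and was named after its values were seen, fell by 0.21 at its brightest probe set and differed by 0.047 at the other (limma adjusted p = 0.155).

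**Figure D4:**
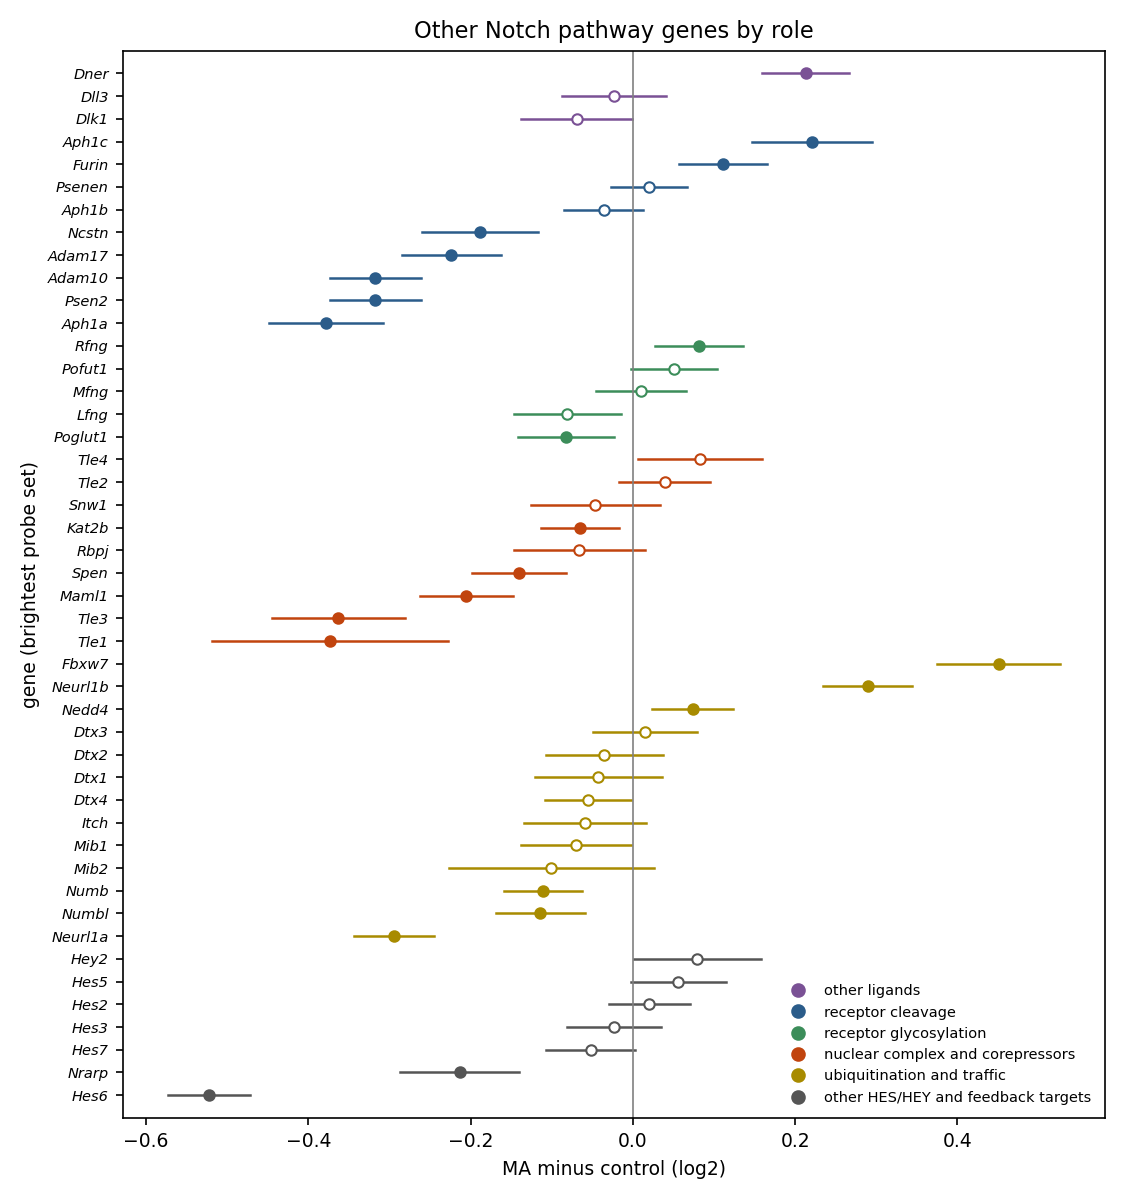
MA minus control on the log2 scale (x axis) for the 46 measured pathway genes that are not members (y axis), at the brightest probe set and with limma's 95% interval, colored by role. Filled points, with an adjusted p under 0.05, number 16 below 0 and 7 above it, from Hes6 at -0.52 to Fbxw7 at 0.45.

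Notch receptors and their targets are expressed in several of the cell types of muscle, so markers of these cells were read on the same arrays. The counts of each marker list stand beside 23.0% of all named genes that fell, 24.7% that rose and 47.8% in either direction. Endothelial markers were lower in the MA group at 12 of 14 genes and higher at none, with a median of -0.25. Flt1, a VEGF receptor, fell most, by 0.50. Its other probe sets differed by -0.21 (limma adjusted p = 0.00162) and, under the level of nonspecific binding, by 0.040 (limma adjusted p = 0.461). The mean over the list was 5.05 to 5.10 on the MA arrays and 5.27 to 5.34 on the control arrays, and of its defining genes Pecam1 and Cdh5 were above the level of nonspecific binding while Tie1 was not. Cdh5 fell by 0.28 at its brightest probe set but was higher by 0.099 at the other (limma adjusted p = 0.0469).

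Markers of pericytes and smooth muscle, where Notch3 is found, were lower at 4 of 7 genes and higher at 1, with a median of -0.21. The mean over the list was 5.85 to 5.90 on the MA arrays and 6.08 to 6.09 on the control arrays. Mylk, the myosin light chain kinase, fell by 0.70, and Kcnj8, a potassium channel, rose by 0.17. Rgs5, the gene of the list with the highest values, was named after its values were seen. It fell by 0.59 at its brightest probe set and by 0.56 to 1.00 at the others. The other probe sets of Mylk differed by 0.060 (limma adjusted p = 0.122) and -0.17 (limma adjusted p = 0.0198). Cnn1 stood under the level of nonspecific binding.

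Macrophage markers, of which 8 of 10 fell and none rose, had the largest shift of the marker lists, with a median of -0.68. The mean over the list was 6.28 to 6.32 on the MA arrays and 7.05 to 7.07 on the control arrays. Aif1, a calcium-binding protein of macrophages, fell by 1.97, and Itgam stood under the level of nonspecific binding. The medians of the endothelial, pericyte and smooth muscle, and macrophage lists thus lay below 0, as Notch1, Notch3 and Hes1 did. The pericyte and smooth muscle list was mixed. So was the fibroblast and fibro-adipogenic progenitor list, whose median was -0.043 while its mean over the list was higher under MA, by 0.13. Notch2, which passed the test, lay above 0, at 0.20. Dll4 and Hey1, at 0.016 and 0.030, did not pass, so their signs are not read as a direction. The part of the marker lists in the differences of the members was not tested.

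Satellite cell markers did not move together, with 5 of 10 higher, 4 lower and a median of 0.068. Myf5, a myogenic regulator, rose by 0.54, and Sdc4, a heparan sulfate proteoglycan, fell by 0.48. The mean over the list was 6.08 to 6.09 on the MA arrays and 6.04 to 6.06 on the control arrays. Pax7, the defining gene of these cells, was at 3.86 ± 0.030 against 3.97 ± 0.037 (SD, n = 3), at the level of nonspecific binding, and Calcr was under it.

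Schwann cell markers were higher at 3 of 5 genes and lower at 2, with a median of 0.14, from Mbp, a myelin protein, at -0.49 to Pmp22, another myelin protein, at 0.24. Their mean was 5.35 to 5.36 on the MA arrays and 5.35 to 5.37 on the control arrays, and S100b stood under the level of nonspecific binding. At its other probe set Mbp differed by -0.049 (limma adjusted p = 0.283). Markers of fibroblasts and fibro-adipogenic progenitors were higher at 3 of 9 genes and lower at 3, with a median of -0.043, from Gsn, an actin-severing protein, at -0.19 to Lum, a matrix proteoglycan, at 0.64. Their mean was 7.84 to 7.85 on the MA arrays and 7.71 to 7.72 on the control arrays, with Tcf21 under the level of nonspecific binding. Muscle fiber markers were higher at 6 of 10 genes and lower at none, with a median of 0.11, led by Tnni2, a fast troponin, at 0.19. The part of these lists in the differences of the Notch genes was not tested either.

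**Figure D5:**
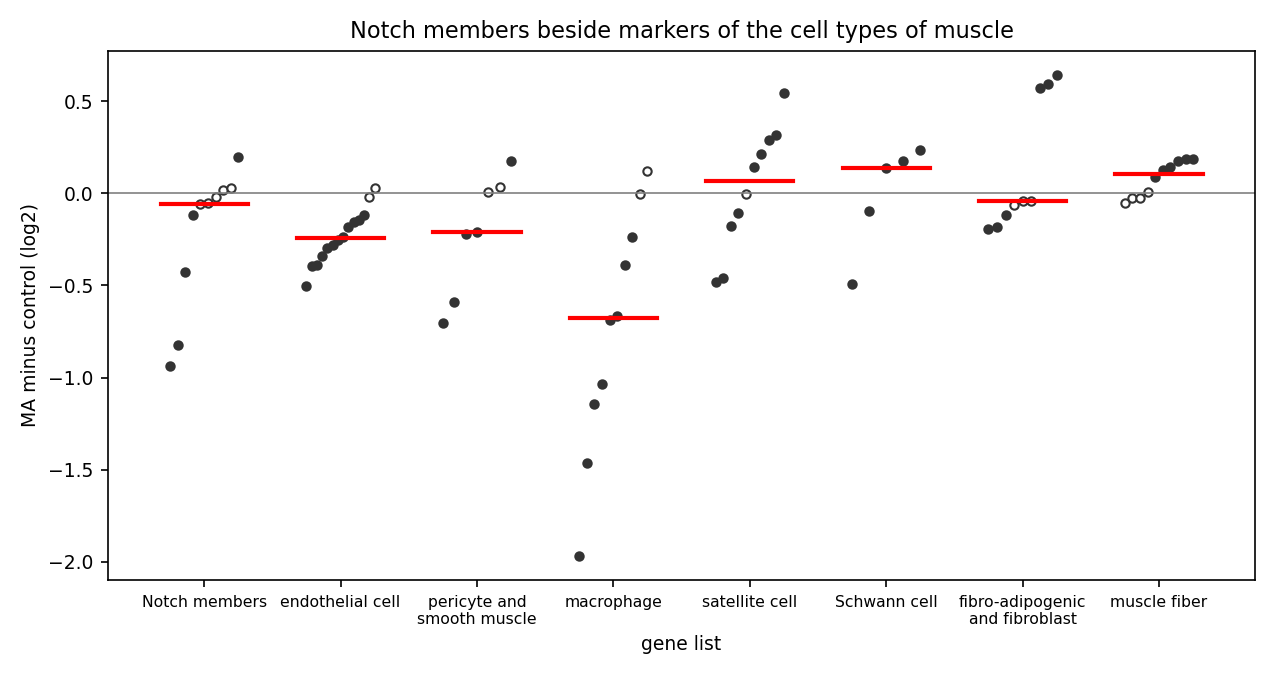
MA minus control on the log2 scale (y axis) for each gene of the member list and of 7 lists of cell type markers (x axis), with 1 point per gene at its brightest probe set, filled for an adjusted p under 0.05, and with each list's median as a red bar. The medians of the macrophage, endothelial and pericyte and smooth muscle lists, at -0.68, -0.25 and -0.21, lie below that of the Notch members at -0.057.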

How the data were processed

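Total RNA of the gastrocnemius from 3 MA and 3 control samples was hybridized to mouse Affymetrix 3' arrays. The design text names a human array, whereas the probe sets carry names of the mouse array. The deposited values are log2 RMA values that the authors made with Affymetrix Expression Console, whose version and genome build are not given in the sources used here. The authors' own fold changes were not used.

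Of 45141 probe sets, 104 array controls were set aside. Platform annotation paired 28898 of the rest with a single gene, 551 with several and 15588 with none. Groups were compared with limma 3.58.1 (lmFit and eBayes, no covariates) in R 4.3.3, after the calculation was tested on simulated data, with Benjamini-Hochberg adjustment over 45037 probe sets. No pseudocount was added and no dim probe set was removed. Arrays carry no read depth, so the number of arrays limits the precision. RMA forces the arrays to 1 distribution, which hides a change shared by most genes. The median SD within groups was 0.037.

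The nonspecific-binding level was to be the highest nonspecific-binding control, but the all-G/C control read 7.11 to 7.33 and was set aside after its values were seen. The highest of the other 22 gave 3.95, and 40.5% of probe sets had means at or under it.

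The members and lists were chosen with earlier results of these data known. All members were named. Of the other pathway genes, the brightest of each role was named, with the 5 largest rises and the 5 largest falls among genes that passed and were above the nonspecific-binding level, and of each marker list the genes that rose and fell most. Gene positions and promoters came from RefSeq on GRCm38.p6. The genes of the pathway list that were not measured are not reported here. As alternatives each array was left out in turn, dim probe sets were filtered, values were quantile normalized again or median centred, probe sets were averaged per gene, a fold limit of 1.2 was added, and the model was run with array weights, a replicate block, a trend, robust moderation or, in its place, the one-way test that the methods name.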

Additional observations from a re-analysis of the deposited data

How the results depend on the processing

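Notch1, Notch2, Notch3 and Hes1 kept their direction and passed at adjusted p under 0.05 in every alternative in which they were tested, with log2 differences of -0.96 to -0.90, 0.19 to 0.21, -0.44 to -0.40 and -0.83 to -0.80 at the brightest probe set. Averaging the probe sets of a gene gave -0.59 for Notch1 and -0.31 for Notch3. Notch4 did not, as given with its values. The one-way test of the methods found 5 member probe sets lower instead of 8, with 33% of all probe sets passing in either direction instead of 42.9%. The filter at the all-G/C control kept 6211 probe sets, of which 85.3% passed in either direction, with Dll1 and Hes1 as the only members. It gave 0 member probe sets higher and 2 lower, and 0 member genes higher and 2 lower. It also gave 1 member past 1.2-fold, and 3 of 10 pathway genes higher and 6 lower. Within it Dll1, at -0.059, passed with an adjusted p of 0.0369, where the refitted variance moderation gave an unadjusted p of 0.0310 in place of 0.0732. The filter at 3.95, chosen after seeing the data, kept 27407 probe sets, of which 57.5% passed in either direction, and gave 5 member probe sets lower. Requiring a fold over 1.2 beside the adjusted p left 0 member genes higher, 2 pathway genes higher and 7 lower. The same averaging moved Notch4 to -0.079 (limma adjusted p = 0.0707) and Jag1 to -0.066 (limma adjusted p = 0.0121).

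With 1 array left out, 5 to 7 member probe sets were lower, with 5 without MA array 1, MA array 3 or control array 2, and 1 to 2 were higher, with 2 without MA array 2. Likewise 3 to 4 member genes were lower and 1 was higher, 3 were past 1.2-fold, and 5 to 7 pathway genes were higher and 14 to 17 lower. Of all probe sets 34.7% to 43% passed in either direction with 1 array left out. Differences near 0 changed sign. Notch4 1456263_PM_at ran from -0.062 to 0.014, the latter without control array 1. Dll4 1421826_PM_at ran from -0.0088 without control array 2 to 0.057, and Dll4 1421827_PM_at from -0.013 without MA array 3 to 0.034. Jag1 1421106_PM_at ran from -0.035 to 0.0098 without control array 1 and was 0.0034 without MA array 2. Heyl 1438886_PM_at ran from -0.038 to 0.021, with 0.021 without MA array 3, 0.013 without MA array 2, 0.0022 without control array 2 and 0.0021 without control array 3. Apart from those of construction, the cause of these changes was not tested.

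The replicate numbers were not taken to pair the arrays, since the test of the methods has no covariates. Deviations of same-numbered arrays correlated at 0.19, 0.042 and 0.14. Differently numbered arrays were not set beside them, so these values cannot decide whether the arrays are paired. With the number as a replicate block 19844 instead of 19331 probe sets passed, and 2 member probe sets were higher, the added one being Heyl 1419303_PM_at at 0.076 (limma adjusted p = 0.0434). Among the pathway genes the block lost Kat2b (limma adjusted p = 0.0555) and added Lfng, Mib1 and Tle4 (limma adjusted p = 0.0392, 0.0433 and 0.0288), and it changed no call of a member gene at its brightest probe set. Of the 18 member probe sets 6 were not above 3.95 in either group, and Notch4, Dll4 and Jag1 lay nearest to it at their brightest probe set.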
